A study of Apis mellifera with 12 samples.

Results

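The microRNA ame-miR-14 is 1 of 168 honey bee (Apis mellifera) microRNAs (miRNAs) measured on 12 arrays of worker brain RNA, and it is described here over its 18 spots on each array. It was chosen on its measured signal, which fell into a higher and a lower level over the 12 brain pools, so its levels are given as a description and support no test. The control group was 6 pools from 15-day-old workers that had been injected in the abdomen soon after emergence with 2 µL of double-stranded RNA against green fluorescent protein (dsGFP, 10 µg/µL). The other group was 6 pools from workers of the same age that received the same volume and concentration of double-stranded RNA against vitellogenin (dsVg), a yolk precursor that also interacts with juvenile hormone in workers. All 12 pools came from injected bees, and no uninjected bee was in either group. Each pool held 1 µg of RNA shorter than 200 nucleotides, with 200 ng from each of 5 brains, and each went on its own array. The series asked what vitellogenin knockdown does to the miRNAs of the brain. Vitellogenin mRNA was not measured on these arrays, so how far it fell in each pool is not analysed here.

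In fruit flies miR-14 is a small regulator that ties steroid hormone and insulin signalling together. It holds back the ecdysone receptor, acts in the insulin-producing cells of the brain, limits fat storage and restrains cell death. A miRNA finds its targets mainly through its seed, bases 2 to 8 of the mature strand, and miRNAs with the same seed share many targets.

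The probe sequences show how miR-14 differs from the miRNAs whose signal it is compared with. Each line gives the mature miRNA that a probe was designed for, 5′ to 3′, as the scanner tables list it, with the seed in capitals. The first is miR-14, the next 6 had the highest and the following 3 the lowest rank correlation with it over the pools, and the last, miR-3764, had the nearest sequence.
ame-miR-14: uCAGUCUUuuucucucuccua
ame-miR-13b: uAUCACAGccauuuuugacgauu
ame-miR-7: uGGAAGACuagugauuuuguugu
ame-miR-87: gUGAGCAAaguuucaggugu
ame-miR-71: uGAAAGACauggguaguga
ame-bantam: uGAGAUCAuugugaaagcugauu
ame-miR-277: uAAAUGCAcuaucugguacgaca
ame-miR-210: uUGUGCGUgugacagcggcua
ame-miR-34: uGGCAGUGuuguuagcugguug
ame-miR-124: uAAGGCACgcggugaaugccaag
ame-miR-3764: uAGAUUUUucuuugaucuuaa

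The miR-14 strand is a run of pyrimidines after its seed. Of its 21 bases 18 are C or U (85.7%), the highest share among the 168 miRNAs, whose median was 51.1%. Its G and C content was 38.1%, below the median of 45.5%. No other miRNA on the array shared its seed, and none shared bases 2 to 7. The nearest sequence, miR-3764, lay 8 single-base edits away, against a median of 13 over the array, and it was detected on only 3 arrays. The RefSeq gene table for the Amel_HAv3.1 assembly lists the gene as Mir14 with no other miRNA gene within 10 kb and 1 other gene there, the long non-coding RNA LOC107965276. Neither a seed family nor a listed miRNA cluster was therefore at hand as a second measure of miR-14.

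The scanner tables give intensity on a linear scale that still contains the background, so the empty spots of each array are the measure of no signal. The mean intensity over the 18 miR-14 spots in the dsGFP group was 8687 in pool 1, 13250 in pool 2, 1649 in pool 3, 341 in pool 4, 9830 in pool 5 and 7659 in pool 6. In the dsVg group it was 374 in pool 1, 409 in pool 2, 40624 in pool 3, 783 in pool 4, 603 in pool 5 and 15553 in pool 6. Both groups thus held bright and dim pools, and the 6 dsGFP pools lay within the dsVg range except for dsGFP pool 4. Above the highest dsGFP pool, at 13250, lay dsVg pools 3 and 6. The highest pool, dsVg pool 3, was 119-fold above the lowest, dsGFP pool 4, on this scale.

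Against the median empty spot of the same array, miR-14 stood 35.7- to 41.4-fold higher in dsGFP pools 1, 2, 5 and 6, 67.3-fold higher in dsVg pool 6 and 315-fold higher in dsVg pool 3. It stood 22.1-fold higher in dsGFP pool 3, 5.31-fold in dsVg pool 4, 3.58-fold in dsVg pool 2 and 3.45-fold in dsGFP pool 4. In dsVg pools 1 and 5 it stood only 1.23- and 1.26-fold above the empty spots. A miRNA counted as detected when its mean exceeded the 95th percentile of the array's empty spots, and miR-14 was detected on 11 of 12 arrays. In dsVg pool 5, where it was not, 4 of 18 miR-14 spots passed that percentile, against 18 of 18 on each other array. In dsVg pool 1 the call separates little, since all 168 miRNAs passed the percentile of 324 there, with a median miRNA at 362 and the control probe Ctr04-3P at 352, close to the 374 of miR-14. The values of the dimmest pools are therefore close to the floor of the assay, and the distance between the levels is a lower estimate there.

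**Figure D1:**
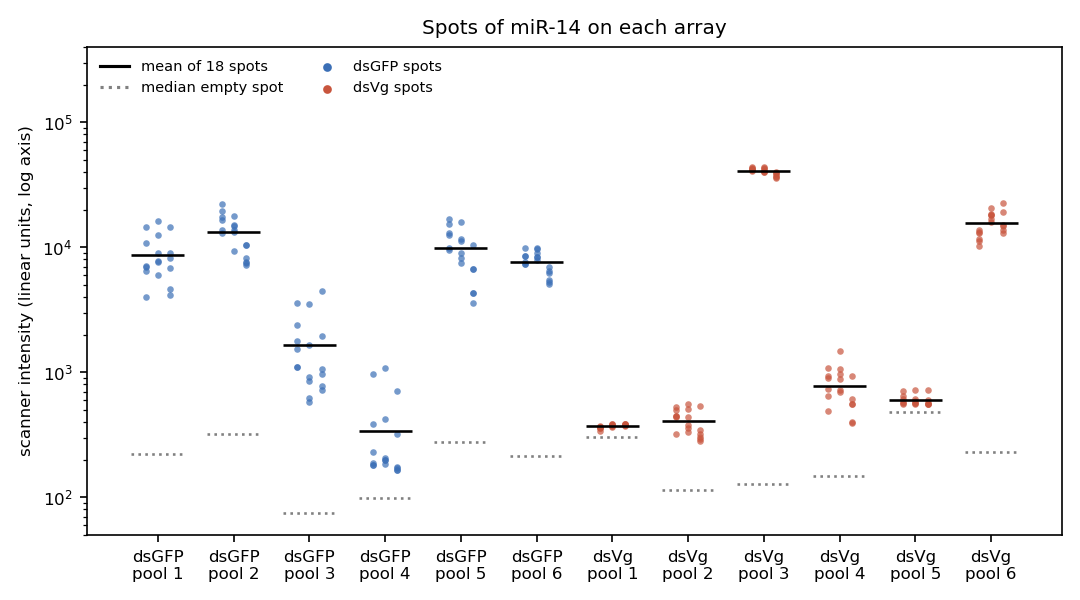
Scanner intensity of each of the 18 miR-14 spots (points, log axis) in the 6 dsGFP and the 6 dsVg pools, with each pool's mean as a black bar and the array's median empty spot as a dotted line. Spots of dsVg pools 1 and 5 lie near the empty spots, those of dsVg pool 3 lie near 40624, and dsGFP pools 3 and 4 have long upper tails.

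After background correction, log2 and quantile normalization of the 168 miRNAs, the miR-14 signal in the dsGFP pools 1 to 6 was 13.49, 13.49, 9.58, 8.54, 13.96 and 13.49. In the dsVg pools 1 to 6 it was 7.43, 8.71, 15.28, 9.48, 8.64 and 13.71. Equal values arise because quantile normalization gives the same value to the same rank. The 6 higher pools were dsGFP pools 1, 2, 5 and 6 and dsVg pools 3 and 6, and the 6 lower pools were dsGFP pools 3 and 4 and dsVg pools 1, 2, 4 and 5. Nothing lay between 9.58 in dsGFP pool 3 and 13.49 in dsGFP pools 1, 2 and 6, a gap of 3.91 on the log2 scale or 15.0-fold. That gap was wider than the whole range of the higher pools (1.80) or of the lower pools (2.15). Whether the step lies in the miR-14 content of the pools or in its measurement was not tested. In these pooled extracts, fewer cells that contain miR-14 and less miR-14 per cell cannot be told apart either.

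**Figure D2:**
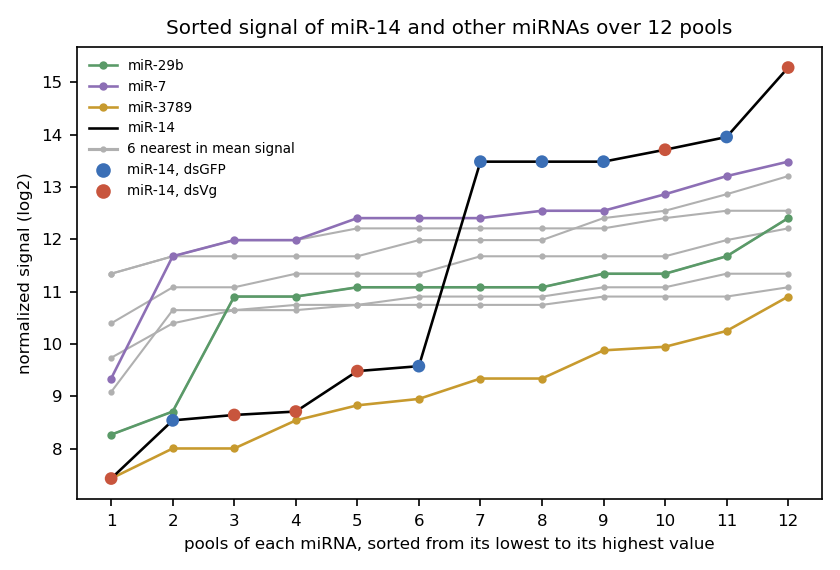
Normalized log2 signal over the 12 pools, sorted from the lowest to the highest for each miRNA, of miR-14 (black line, points coloured by group), the 3 miRNAs with the next largest SD, and the 6 nearest to it in mean signal (grey, with miR-29b in both sets). The miR-14 line steps from 9.58 to 13.49 between the 6 lower and the 6 higher pools, and the widest step of another line is at most 2.34.

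The same pools lay on each side without normalization, but the step was then no wider than the levels. The gap was 2.46 on the log2 scale before normalization between arrays, against a range of 2.46 in the higher and 3.12 in the lower pools. On the scanner scale the lowest of the higher pools was 4.64-fold above the highest of the lower pools (7659 against 1649), while the higher pools spanned 5.30-fold and the lower pools 4.83-fold. There 1 of 108 spots in the lower pools was brighter than the dimmest spot of the higher pools. In the authors' table of processed values, which are intensities with a normalization not given in the sources used here, miR-14 was 6704, 5334, 513, 143, 9706 and 6370 in dsGFP pools 1 to 6. There it was 82, 303, 11560, 432, 225 and 7235 in dsVg pools 1 to 6. The deposited values place the same pools on each side, with a 10.4-fold step between 513 and 5334 and a 141-fold range. The gap was wider than the range of either level in 9 of 11 settings, and the exceptions were no normalization and scaling to the median.

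By the rank of its probe among the 168 miRNA probes of an array, miR-14 lay among the brightest probes in some pools and well below them in others. On the scanner scale it was ranked 1 in dsVg pool 3 and 4 to 6 in the other higher pools. In the lower pools it was ranked between 26, in dsGFP pool 3, and 49, in dsVg pool 1. On the remaining 11 arrays the brightest probe was that of miR-252. A rank within an array does not depend on scaling between arrays. By rank the higher and the lower pools did not overlap, but the levels were set on quantile-normalized values, which follow the rank. That separation by rank therefore comes from how the levels were set and is no further evidence for them.

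Few other miRNAs varied in this way. Over the 84 miRNAs detected on at least 6 arrays, the standard deviation (SD) over the 12 pools was 2.79 for miR-14 on the normalized log2 scale. The next were miR-29b with 1.17, miR-7 with 1.04 and miR-3789 with 1.03, and the median of the other 83 was 0.33. The widest gap between neighbouring pools was 3.91 for miR-14, against a median of 0.42 and at most 2.34 among the others. Its range of 7.86 compares with a median of 1.20 and at most 4.15. Its mean signal of 11.3 ranked 15 of 84, with miR-11, miR-210 and miR-307 just above and miR-29b, miR-8 and bantam just below, so its probe was not among the dim ones on the whole. These figures describe the choice of miR-14 and are not evidence for it.

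The groups shared both levels. The higher level held 4 of 6 dsGFP and 2 of 6 dsVg pools. The mean normalized log2 signal was 12.09 ± 2.38 (SD, n = 6) in the dsGFP group and 10.54 ± 3.17 (SD, n = 6) in the dsVg group. The difference, dsVg minus dsGFP, was -1.54 with a standard error of 1.48. It was smaller than the SD of the pools in either group, and no p is given for it, since miR-14 was chosen on these values. Over all miRNAs, the limma fit called 0 of 84, a background of 0%, with 3 at an unadjusted p under 0.05 and a smallest adjusted p of 0.622. With array quality weights 1 miRNA, miR-375, was called (limma adjusted p = 0.0385), and the miR-14 difference was -1.70.

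The size and the apparent direction of the group difference depended on the scale and on single pools. On the linear scanner scale the mean was higher in the dsVg group, 9724 ± 16286 against 6903 ± 4965 (SD, n = 6 each), a mean that includes the 40624 of dsVg pool 3. The medians ran the other way, 693 against 8173. Without dsVg pool 3 the log2 difference was -2.49, without dsVg pool 1 it was -0.92, and without dsVg pools 1 and 5, the ones nearest to the empty spots, it was -0.29. The difference kept its sign in these settings, and its size did not hold.

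Arrays also differed in how many miRNAs rose above the empty spots, and this was set beside the miR-14 levels. More than 80 miRNAs were detected on 3 dsGFP arrays (pools 1, 3 and 4) and 3 dsVg arrays (pools 1, 2 and 3), with between 97 and 168 there and between 34 and 60 on the rest. Among the arrays over 80, 1 of 3 dsGFP and 1 of 3 dsVg pools had the higher miR-14 level, and the group difference was -0.06. Among the others it was 3 of 3 dsGFP and 1 of 3 dsVg pools, with a difference of -3.03. Both levels thus occurred on both kinds of array.

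The 18 miR-14 spots of an array lie in 6 rows and 3 columns. They run from array row 21 to row 121 of 128 and from array column 2 to column 22 of 31. They thus show whether hybridization was even over that part of the array. The coefficient of variation (CV, the SD as a percent of the mean) over the spots was 42.1, 33.6, 69.8, 83.5, 40.3 and 19.8% in dsGFP pools 1 to 6. It was 3.52, 22.8, 5.93, 35.6, 9.58 and 22.2% in dsVg pools 1 to 6. The median CV of the 33 other miRNAs detected on all 12 arrays lay between 3.99 and 10.4%, so miR-14 was uneven on most arrays. It had the largest CV of these 34 miRNAs on 9 of 12 arrays. The exceptions were dsVg pool 3, where it was brightest, and dsVg pools 1 and 5, where it was close to the empty spots. With the median empty spot subtracted the CVs of dsVg pools 1 and 5 were 18.8 and 46.3%. So little signal was left there that these values cannot separate uneven miR-14 from uneven background.

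The unevenness followed position on the array. The row with the lowest number is called the top row here, and the column with the lowest number the left column. In dsGFP pool 4 the 4 upper rows averaged 187 with no spot above 232. The bottom row there had a geometric mean (averaged in log2) of 908, with no spot under 715. Rows accounted for 96.8% of the variance between spots. In dsGFP pool 3 the 4 upper rows averaged 1003, the geometric mean of the bottom row was 3853, and rows accounted for 85.7%. In dsGFP pool 1 the bottom row was 1.98-fold the top row, with 87.8% of the variance between rows. The tilt in those 3 pools therefore ran from top to bottom, with the bottom row brighter by 1.98- to 4.96-fold.

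In other pools the tilt ran from side to side. The left column was 2.23-fold the right column in dsGFP pool 5 and 1.99-fold in dsGFP pool 2, while in dsVg pool 6 it was 0.753-fold. Columns accounted for 72.1% of the variance in dsGFP pool 2, 74.9% in dsGFP pool 6 and 59.6% in dsVg pool 6. The pools thus had no single direction of tilt, and uneven spots occurred at both levels of miR-14. Even the bottom row of dsGFP pool 4, taken alone, stayed under the dimmest spot of each higher pool, the lowest of which was 3617 in dsGFP pool 5. The bottom row of dsGFP pool 3 was an exception, since its brightest spot reached 4514.

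**Figure D3:**
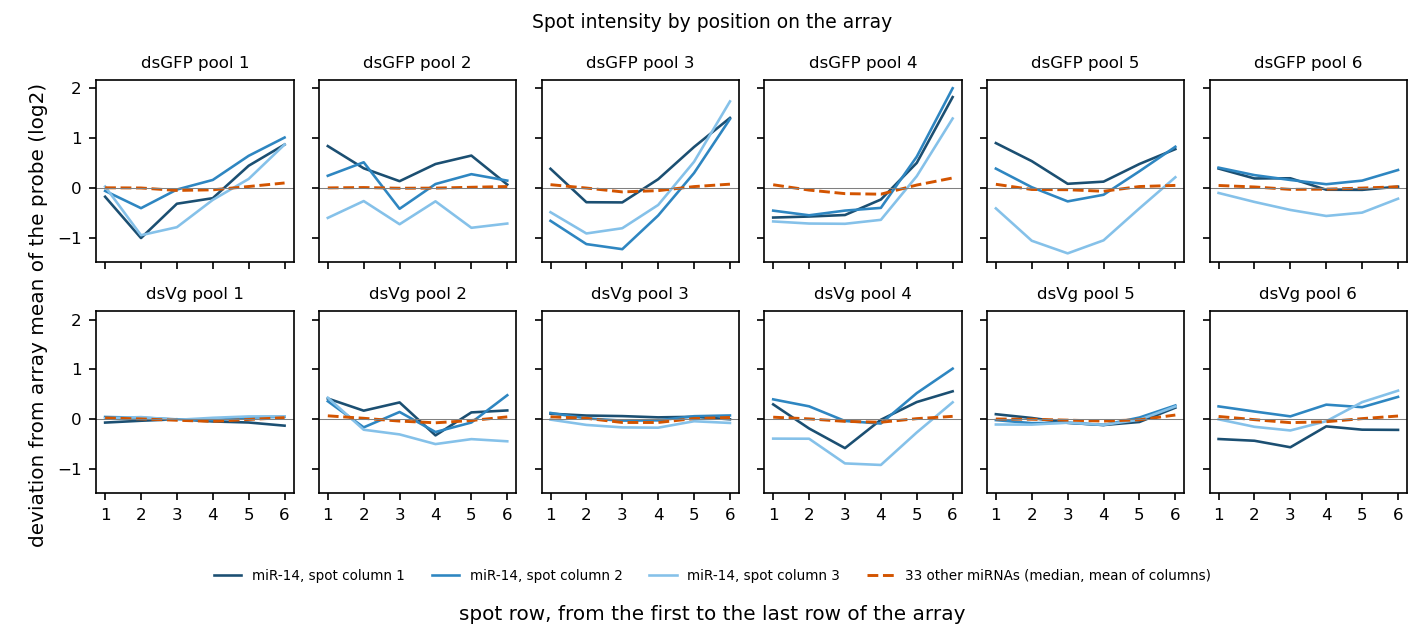
Deviation of each miR-14 spot from the array's mean for that probe (log2) against spot row, top to bottom, for each pool. Each of the 3 spot columns has a line, and a dashed line gives the median of the 33 other miRNAs. miR-14 rises towards the bottom row in dsGFP pools 1, 3 and 4, its columns part in dsGFP pools 2 and 5, it is flat in dsVg pools 1 and 3, and the dashed line stays near 0.

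Taken as a median, other miRNAs shared the pattern of the tilt on most arrays. The median profile of the 33 other miRNAs detected on all 12 arrays, over the same 18 positions, correlated with the miR-14 spots at r over 0.5 on 10 of 12 arrays. It reached 0.80 in dsGFP pools 4 and 5, and the exceptions were dsGFP pool 2 (r = -0.38) and dsVg pool 1 (r = 0.23). These are correlations over the spots of 1 array, which share its surface, and carry no p. The SD of that profile was 0.031 to 0.124 on the log2 scale, whereas that of the miR-14 spots was 0.052 to 0.899. The bottom row of the profile was 0.983- to 1.10-fold its top row, against up to 4.96-fold for miR-14. A median over 33 miRNAs is smoother than the spots of 1 miRNA, so these sizes are not like for like. For single miRNAs among the 33, the highest spot CV was 24.5% in dsGFP pool 4, against 83.5% for miR-14. In dsVg pool 5 it was 44.2%, against 9.58% for miR-14.

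The miRNAs that followed miR-14 were sought among the 33 others detected on all 12 arrays, by Spearman's rho of the normalized log2 signal over the 12 pools. The pools share arrays and scaling and miR-14 falls into separate levels, so rho is used here only to put the miRNAs in order and carries no p. The highest was 0.62 for miR-13b, a member of the miR-2 family that in flies targets cell death genes. Then came miR-7 (0.43), a regulator of sensory cell fate in flies, miR-87 (0.38), miR-71 (0.37), bantam (0.26), a growth and survival factor in flies, and miR-277 (0.10), which in flies controls the breakdown of branched-chain amino acids. In all 7 of 33 had a rho above 0, a count that quantile normalization also shapes, as described below for the inverse relations. None of these miRNAs showed the step itself.

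The signal of miR-13b in dsGFP pools 1 to 6 was 12.21, 12.86, 12.21, 12.41, 12.63 and 12.63 on the normalized log2 scale. In dsVg pools 1 to 6 it was 12.21, 11.99, 12.55, 12.41, 10.51 and 12.41. Apart from the low dsVg pool 5 it moved by less than 1 log2 unit where miR-14 moved by 7.86. Within the 6 higher pools its rho with miR-14 was -0.12, and within the 6 lower pools 0.03, so the order held only between the levels. For miR-7 it was 0.74 and 0.83, and for miR-71 0.70 and 0.64, within the higher and the lower pools. For bantam it was 0.72 and 0.12, and for miR-87 -0.88 and 0.34.

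The strongest relations were inverse. The normalization contributes to this, because miR-14 was itself among the miRNAs that were ranked. Where miR-14 ranks higher, each miRNA that it passes moves down in rank and takes a lower value. Some of the inverse rho is therefore built in, and how much was not tested. The lowest rho was -0.94 for miR-210, known from the response to low oxygen in mammals. It was -0.93 for miR-34, which in flies protects the ageing brain, and -0.91 for miR-124, a hallmark of neurons. The miR-210 signal in dsGFP pools 1 to 6 was 11.68, 11.99, 11.99, 12.55, 11.68 and 11.68, and in dsVg pools 1 to 6 it was 12.86, 12.41, 11.34, 11.99, 13.21 and 11.68. The miR-124 signal was 9.34, 9.74, 9.74, 10.00, 9.08 and 9.74 in the first group, and 11.34, 10.51, 9.34, 10.00, 11.99 and 9.58 in the second. Both were highest in dsVg pools 1 and 5, where miR-14 was nearest to the empty spots. Within the higher and the lower pools rho was -0.72 and -0.81 for miR-210, -0.88 and -0.64 for miR-34, and -0.66 and -0.64 for miR-124.

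Which miRNAs followed miR-14 depended on the scaling, and so did the direction. Without normalization between arrays 31 of 33 miRNAs had a rho above 0, the highest being miR-71 (0.80), bantam reached 0.74, and miR-210 (0.15), miR-34 (-0.06) and miR-124 (0.06) had hardly any relation. Of the deposited values, those of 14 of 33 miRNAs had a rho above 0, led by miR-87 (0.81), with miR-124 lowest (-0.94). Scaling to the 75th percentile gave 10 of 33 above 0, and scaling to the median gave 29. An inverse relation after quantile normalization is therefore relative to the other miRNAs of the same array, and not a fall in the measured intensity.

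**Figure D4:**
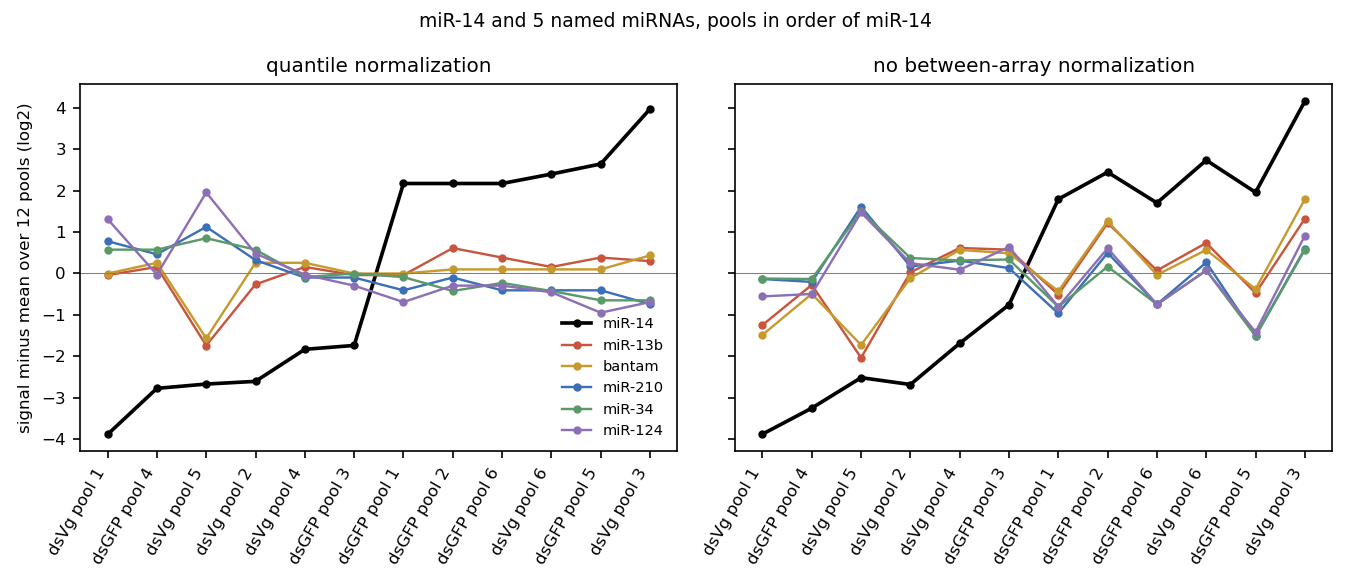
miR-14 and 5 named miRNAs over the 12 pools, in order of miR-14, as log2 signal minus each miRNA's mean over the pools, after quantile normalization (left) and without normalization between arrays (right). On the left miR-210, miR-34 and miR-124 decline as miR-14 rises, and on the right they do not; no other line has the step of miR-14.

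The order of the miRNAs by rho varied with their G and C content, and other traits are not compared with it here. Across the 33 miRNAs, which are not independent replicates, the correlation of G and C content with rho was r = -0.64 (Spearman's -0.60) after quantile normalization and r = -0.57 without it. Among 11 miRNAs with a content under 45% the median rho was -0.05, and 5 were above 0. Among 22 with 45% or more it was -0.58, and 2 were above 0. Without normalization these medians were 0.51 and 0.26. The correlation was negative under each of the 11 settings, between -0.64 and -0.47.

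Seen by pool, the normalized signal, centred for each miRNA on its mean over the pools, rose with G and C content by 0.92 log2 units per 10 percentage points in dsVg pool 5 and by 0.34 in dsVg pool 1. It changed by -0.33 in dsVg pool 3, by -0.23 in dsGFP pool 3 and by -0.20 in dsVg pool 4. In dsGFP pool 4 and dsVg pool 2 it changed by 0.02 and 0.03, and in the remaining higher pools by -0.16 to -0.07. The extremes of the slope were thus in the pools with the lowest and the highest miR-14 over empty spots, but the slope did not separate the levels, since dsGFP pool 3 and dsVg pool 4 had a lower miR-14 and a more negative slope than 5 of the 6 higher pools. The part of base composition in the miR-14 levels was not tested.

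**Figure D5:**
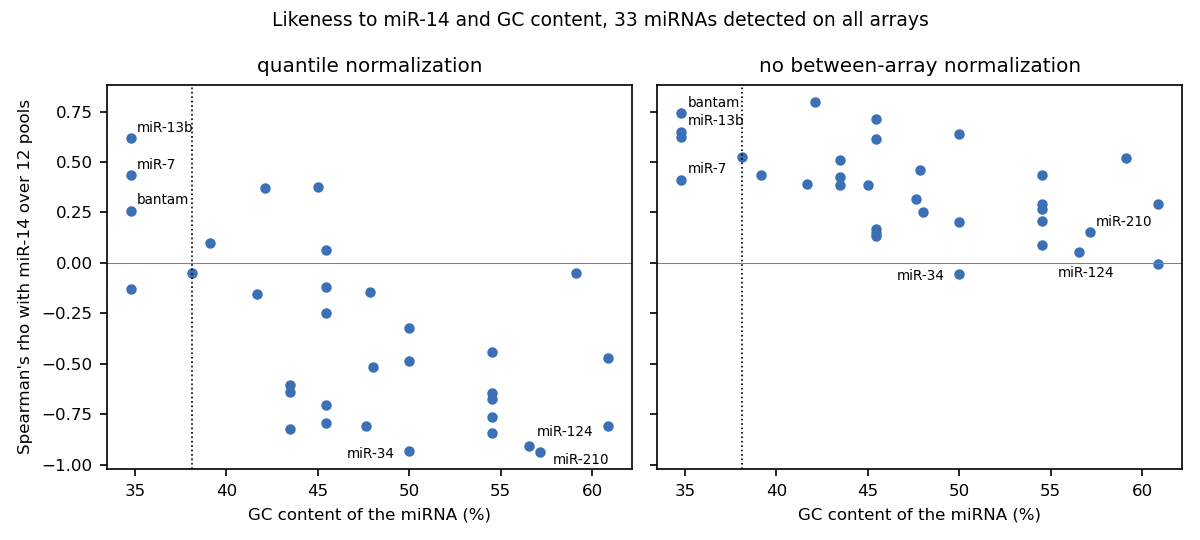
Spearman's rho of each of 33 miRNAs with miR-14 over the 12 pools against its G and C content in percent, after quantile normalization (left) and without normalization (right), with the content of miR-14, 38.1%, as a dotted line. miRNAs poor in G and C lie higher in both panels, with r = -0.64 on the left and r = -0.57 on the right.

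Control probes of the array were set beside miR-14 as well. Of 57 control probes, 4 had a rho over 0.7 with miR-14 on the scanner scale, against a median of 0.11. On that scale 5 of the 33 miRNAs were over 0.7, led by miR-71 (0.85), with a median of 0.41. The 4 probes, Ctr07-3M05 (0.86), Ctr09-3M10 (0.86), Ctr07-3M10 (0.85) and Ctr09-3M05 (0.82), were picked after their values were seen, and the sources used here do not say what their names stand for.

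The signal of Ctr09-3M10 as a percent of the similarly named Ctr09-3P was 39.4, 36.5, 41.3, 17.9, 28.4 and 25.6% in dsGFP pools 1 to 6. In dsVg pools 1 to 6 it was 0.80, 17.0, 82.2, 19.0, 3.30 and 41.7%. It was lowest in dsVg pools 1 and 5 and highest in dsVg pool 3, the same extremes as miR-14 over the empty spots, while dsGFP pool 3, with a lower miR-14 level, had the third highest percent. The like percent for Ctr07-3M10 of Ctr07-3P was 2.15, 1.82, 0.484, 0.396, 3.23 and 1.33% in dsGFP pools 1 to 6, and 1.01, 0.468, 51.6, 0.678, 3.26 and 1.52% in dsVg pools 1 to 6. It too was highest in dsVg pool 3, while dsVg pool 5 came next and dsVg pool 1 lay in mid-range. These percents still contain the background. In dsVg pools 1 and 5 Ctr07-3M10 read 374 and 564.5, against a median empty spot of 304 and 478. Its percents there are therefore mostly background, and the low end of this ratio cannot be compared with that of the first. The intensity of Ctr09-3P itself varied by only 1.54-fold over the pools. The part of the behaviour of these probes in the miR-14 levels was not tested.

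Because miR-14 is known for hormone and insulin signalling, 12 other miRNAs with such roles in flies or bees were examined beside it. All 12 were on the array and tested, and 0 passed the limma threshold, with 1, miR-275, at an unadjusted p under 0.05 (difference 0.61, limma adjusted p = 0.666). Of the 12, 5 were higher and 7 lower in the dsVg group, and the median difference was -0.10, against 0.03 over the 84 miRNAs, of which 45 were higher. The median of the 12 was 0.13 with arrays scaled to their median, against 0.09 over the 84. With no normalization between arrays it was 0.19, against 0.15 over the 84. The set of let-7, miR-100 and miR-125, which the ecdysone pulse induces together in flies, differed by -0.13, -0.07 and 0.24. The SD over the 12 pools was 0.16 to 0.57 for the members, and the widest gap was 1.56, for bantam. None had a step like that of miR-14.

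Markers of cell types were read beside miR-14, since pools could differ in dissected tissue. All 8 brain and neuron markers were on the array, 6 were detected on all 12 arrays, and their summed normalized signal was 54812 to 67573 in the dsGFP and 53909 to 68826 in the dsVg pools. That sum had a rho of -0.80 with miR-14, and it includes miR-34 and miR-124. Both muscle markers, miR-1 and miR-133, were on the array, 1 of them detected on all arrays, with sums of 574 to 1310 and 517 to 1231 and a rho of 0.06. The 7 markers of gut, fat body and glands, 3 of them detected on all arrays, summed to 3306 to 4966 and 3423 to 5385, with a rho of -0.85. The neuronal marker miR-124 was detected on all 12 arrays, the muscle marker miR-1 on 11 and miR-375, of the third list, on 9. The sums are of quantile-normalized signal, so part of their inverse rho can be built in, as for the single miRNAs. The part of tissue makeup in the miR-14 levels was not tested.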

How the data were processed

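The authors deposited 1 scanner table per array, in intensity on a linear scale with no background column, and 1 table of processed intensity. Per the labels' protocols, a service provider extended the RNA with poly(A), ligated a tag to it and stained it with Cy3. Per the file headers, intensity is a mean of pixels on 11 arrays and a median on dsGFP pool 1, and the values of dsVg pool 5 are whole numbers. The scanner and its software are not named in the sources used here.

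Intensities were corrected with normexp (offset 50, all spots), turned to log2, averaged over 18 spots and quantile-normalized over 168 miRNAs. Groups were compared with limma 3.58.1 in R 4.3.3 (two-sided, Benjamini-Hochberg over 84 miRNAs detected on at least 6 arrays, threshold 0.05). Descriptions were computed in Python 3.11.15 with scipy 1.17.1. The fit was tested on simulated data. The rule for named miRNAs took miR-14, the 6 highest and 3 lowest by rho among those detected on all arrays, its 3 neighbours on each side in mean signal, the 3 with the largest SD, those nearest in sequence or genome, and a hormone list. Members and lists were chosen with earlier results of these data known. The labels say that each pool held 5 different bees, not that pools were injected or hybridized separately, so p-values measure only the spread between these pools. The 30 pairs of pools within a group differed by more than the noise of their spots, with a ratio of chi-square to its degrees of freedom between 33.4 and 3419. The number of arrays limits the precision.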

Additional observations from a re-analysis of the deposited data

Results flagged for a closer look

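The 25 named miRNAs and the miR-14 spot CV were examined in both groups. Of 52 sets of 6 pools, 9 held a pool that stood apart from the other 5. The rule flags about 1 in 20 sets by chance. These sets share arrays, and some miRNAs were named for a large SD or an extreme rho, so that rate cannot show an excess. On the normalized log2 scale, in the dsGFP group, miR-7 was highest in pool 3, at 13.49 against 12.41 in the next pool. In dsGFP pool 4 miR-210 was highest, at 12.55 against 11.99, and so was miR-275, at 10.51 against 10.00. In dsGFP pool 6 miR-125 was lowest, at 9.20 against 9.88. In the dsVg group pool 5 was the lowest for 3 miRNAs, with 10.51 against 11.99 for miR-13b, 12.86 against 14.35 for miR-87 and 9.08 against 10.65 for bantam. In dsVg pool 3 miR-252 was lowest, at 14.48 against 15.28 in the other pools, and there miR-14 held the highest rank in its place. In dsVg pool 1 miR-3743 was highest, at 7.32 against 6.84. miR-14 itself was not among them, since its pools formed levels and not a single outlying pool.

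Control probes entered no comparison of the groups. They were listed where a single dsVg pool was over 4-fold above the highest dsGFP pool, a rule that does not cover the reverse. Most of the 57 control probes did not meet it. In dsVg pool 3, where miR-14 was brightest, the scanner intensity was 17011 for Ctr07-3M05 (highest dsGFP pool 1049), 19582 for Ctr07-3M10 (988), 25426 for Ctr09-3M05 (4780) and 4188 for the probe ame-5S-6, named for 5S RNA (616). In dsVg pool 5, where miR-14 was not detected, ame-5S-3 reached 5669 (1157) and ame-5S-5 reached 10226 (2491). Their part in the miR-14 values was not tested.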

How the results depend on the processing

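The miR-14 difference between the groups was negative in all 32 alternatives, from -3.03 on the arrays with at most 80 detected miRNAs to -0.06 on those with more. Leaving out each pool in turn gave -2.49 to -0.92, and 0 miRNAs called each time. Array weights gave 1 called miRNA. Same-numbered pools had an r of -0.27 to 0.53. Only dsGFP pool 6 had a higher r with its same-numbered dsVg pool (0.53) than with any other dsVg pool (at most 0.28). With the pool number as a replicate block the difference was -1.54 (standard error 1.61), with no call changed. The higher and the lower pools were the same 6 in 11 settings, with a gap of 1.84 (scaling to the median) to 4.18 (empty spot subtracted), wider than the range of either level in 9 of them. The rho with miR-14 changed sign for miR-13b within the higher pools (-0.123). It did so for miR-87 after scaling to the 75th percentile (-0.350) and within the higher pools (-0.880), and for miR-277 after that scaling (-0.336). Without normalization it did so for miR-210 (0.154) and miR-124 (0.0559), and after scaling to the median for miR-124 (0.112). The cause was not tested. The scaling to the 75th percentile of miRNAs detected on all arrays, and the likeness within the lower pools or without dsVg pool 3, were chosen after seeing the data. The spot CV of dsGFP pool 4 was 22.5% by a robust estimate and 118% after the median empty spot was subtracted, which also moved that of dsVg pool 5 from 9.58 to 46.3% and that of dsVg pool 1 from 3.52 to 18.8%. In dsVg pools 1 and 5 the signal over background limits what can be said of level and evenness.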

Other observations

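A drop in dsVg pools 1 and 5 was also present in miR-29b, the miRNA with the next largest SD. Its normalized log2 signal was 8.27 in dsVg pool 1 and 8.71 in dsVg pool 5, against 10.91 to 12.41 in the other 10 pools, which include the other lower pools of miR-14. The widest gap of miR-29b thus separated 2 pools where that of miR-14 separated 6. Outside the rule for named miRNAs, and seen after their values, miRNAs detected on 11 arrays included relations in both directions, with a rho with miR-14 of 0.79 for miR-279 and -0.79 for miR-279c. The muscle markers were also opposed, with 0.69 for miR-1 and -0.44 for miR-133.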
